A study of Mus musculus with 2 samples.

Results

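The replication-dependent histone genes encode the core histones H2A, H2B, H3 and H4 and the linker histone H1, and were taken here as the protein-coding genes of GENCODE M21 (GRCm38) whose symbols begin with Hist1h, Hist2h, Hist3h or Hist4h. This rule found 67 of the 21755 protein-coding genes on the 20 chromosomes of the boundary list, and it used no measured value. Of the 67 genes, 54 lay on chromosome 13 (the Hist1 genes), 10 on chromosome 3 (Hist2), 2 on chromosome 11 (Hist3) and 1 on chromosome 6 (Hist4h4). By family there were 18 H2A, 18 H2B, 13 H4, 12 H3 and 6 H1 genes.

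The positions of these genes were set against 7841 chromatin domain boundaries of mouse immediate neuronal precursors, the dividing cells of the olfactory epithelium from which olfactory sensory neurons arise. The cells came from FVB/NTac pups of mixed sex, were sorted from Ngn1-GFP mice by fluorescence, with no treatment and no other modification per the labels. In situ Hi-C joins DNA ends that are close together in fixed nuclei, and the DNA was cut here with DpnII. There were 2 biological replicates, of 2200000 and 2100000 cells, in a single group, and boundaries were called once, on the contacts of both combined. No boundary therefore has a replicate error, the depth of the contact map is unknown, no test between samples was possible and no p-value is given. The sorted cell type could not be checked against markers, because expression was not analysed here.

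Each boundary is a 5 kb interval at which contacts between its left and its right side are depleted, to which the authors gave a class and a score. The scale of the score is not stated, and it is used here only to describe and rank boundaries within the list. The authors class 4137 boundaries as strong and 3704 as weak, and in the list the strong ones begin at a score of 0.5 and the weak ones at 0.2. A domain below is the stretch between the midpoints of neighbouring boundaries, and there were 7821 of them. The TSS is the 5′ end of a gene model. Distances run from the TSS to the nearer edge of a boundary interval.

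Replication-dependent histone genes are transcribed in S phase, when newly made DNA must be packed into nucleosomes, and they lie in a few clusters of short genes without introns. Their clusters gather in a nuclear body, the histone locus body, organised by the protein Npat. Their mRNAs end in a conserved stem-loop in place of a poly(A) tail. H2A and H2B genes often stand as divergent pairs that share the DNA between them as a promoter.

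The stem-loop is shown first because it is a trait of the class that the choice by symbol did not use. A search for its 16 bases on the transcript strand (GG, any 2 bases, CTT, any base, T, any base, AG, any base, GCC), in the 150 bases after an annotated stop codon, found it in 63 of the 67 genes (94.0%), beginning 21 to 58 bases after the stop codon with a median of 30. Among all 21580 protein-coding genes with an annotated stop codon, 66 had a match (0.306%). The window planned at first was the last 150 bases of the gene model and 100 bases beyond. There 38 of 67 matched (56.7%), against 39 of all 21755 genes (0.179%). The search after stop codons was added after the data were seen. The 4 genes without a match after the stop codon were Hist1h4j, Hist1h2an, Hist1h4b and Hist2h2be. The most frequent forms, with the stem-loop in capitals, were these:
41 genes of the H1, H2A, H2B and H3 families: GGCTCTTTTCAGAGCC
9 genes of the same 4 families: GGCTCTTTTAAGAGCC
8 H4 genes: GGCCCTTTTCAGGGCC
2 H4 genes: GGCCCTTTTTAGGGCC

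The stem separated H4 from the other families. All 11 matched H4 genes opened with GGCCC and all 52 matched genes of the other families with GGCTC. The promoters also differed by family, as described after the boundaries.

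The histone genes fell into 7 groups when neighbours with TSSs at most 100 kb apart were joined. On chromosome 13, group A held 18 genes from Hist1h2bl to Hist1h2br (117.6 kb between first and last TSS), group B 5 genes from Hist1h2ah to Hist1h2bj (7.65 kb), group C 29 genes from Hist1h4h to Hist1h1a (233 kb) and group D the pair Hist1h2ba and Hist1h2aa (0.306 kb). Group D encodes testis-type H2B and H2A, and Hist1h1t in group C a testis-type H1. The remaining groups were the 10 Hist2 genes from Hist2h2ab to Hist2h2bb (49.9 kb), the pair Hist3h2ba and Hist3h2a (5.77 kb), and Hist4h4 alone.

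All 67 TSSs lay in 7 domains, and 2 domains of chromosome 13 held 51 of them. The first ran from the boundary at chr13:21705001-21710000 to that at chr13:22055001-22060000, was 350 kb long, and held all 23 genes of groups A and B. The second ran from chr13:23530001-23535000 to chr13:23770001-23775000, was 240 kb long, and held 28 of the 29 genes of group C. Histone genes made up 88.5% of the 26 protein-coding TSSs of the first domain and 93.3% of the 30 of the second. The median domain of the list had 1 protein-coding TSS and was 265 kb long.

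**Figure D1:**
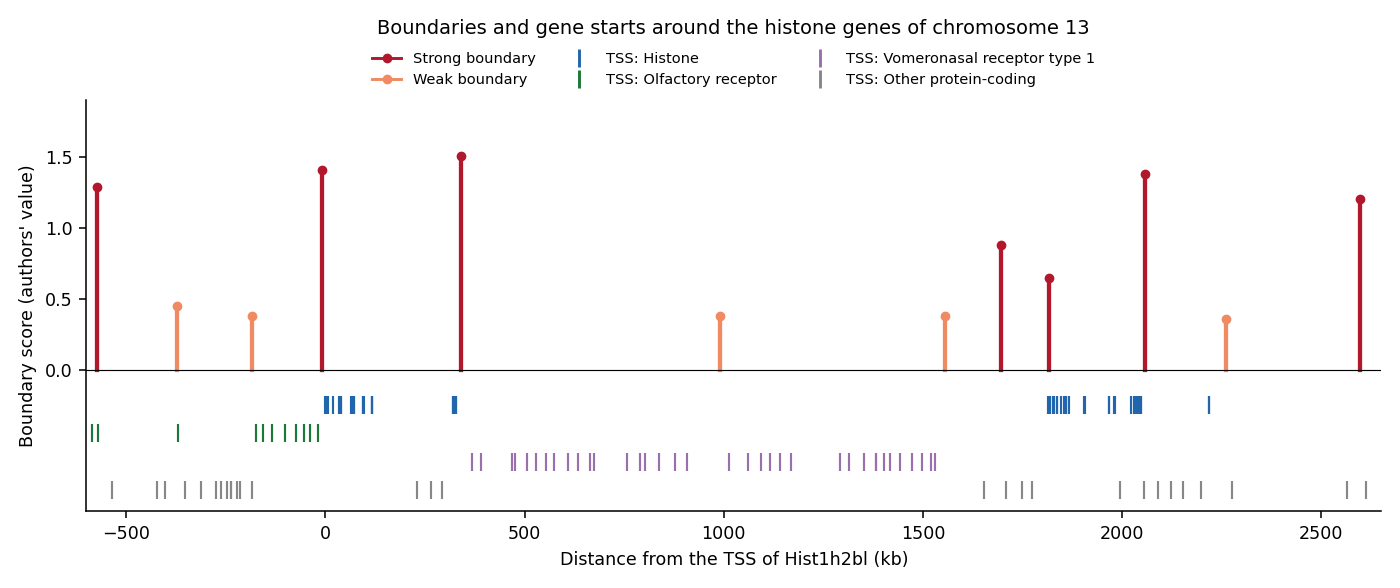
Boundaries and protein-coding gene starts of chromosome 13, by distance in kb from the TSS of Hist1h2bl. Lines with dots are boundaries, with the height giving the authors' score and the colour the class, and ticks below are TSSs, a row for each kind of gene. The 23 starts of groups A and B lie between strong boundaries of 1.41 and 1.51, and 28 of the 29 of group C between strong boundaries of 0.644 and 1.38. Between them lie 36 vomeronasal receptor genes, 4 other genes, 2 weak boundaries (0.378 and 0.375) and a strong one (0.880), and group D has a weak boundary (0.357) on its right.

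The domain of groups A and B was closed by strong boundaries that lay close to its outermost histone genes on both sides. The left border had a score of 1.41, 29th of the 339 boundaries of chromosome 13 and 547th of all 7841. It lay 6.14 kb from the TSS of Hist1h2bl, the first H2B gene. Hist1h2ai (H2A, 6.42 kb) and Hist1h3h (H3, 7.66 kb) also started within 10 kb of it. On its other side, 6.89 kb away, was the start of the olfactory receptor gene Olfr1359, whose gene model overlapped the boundary interval. The right border had a score of 1.51, 24th on the chromosome and 433rd of all, and lay 11.8 kb from the TSS of the H2B gene Hist1h2bj. The nearest start on its far side was that of the vomeronasal receptor gene Vmn1r188, 24.4 kb away.

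Only 9 of the 7821 domains (0.115%) had both borders at or above 1.41, the lower border score of this histone domain. Of these 9 it was the single one with 20 or more protein-coding TSSs, and the largest number in the other 8 was 10. The cutoff is this domain's own value, and 23 of its 26 TSSs are the histone genes. These counts therefore describe the domain and are not a test. Among the 63 domains of the list with at least 20 TSSs, the median score of the weaker border was 0.353, and 18 (28.6%) had strong borders on both sides. For all domains that share was 27.7%.

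**Figure D2:**
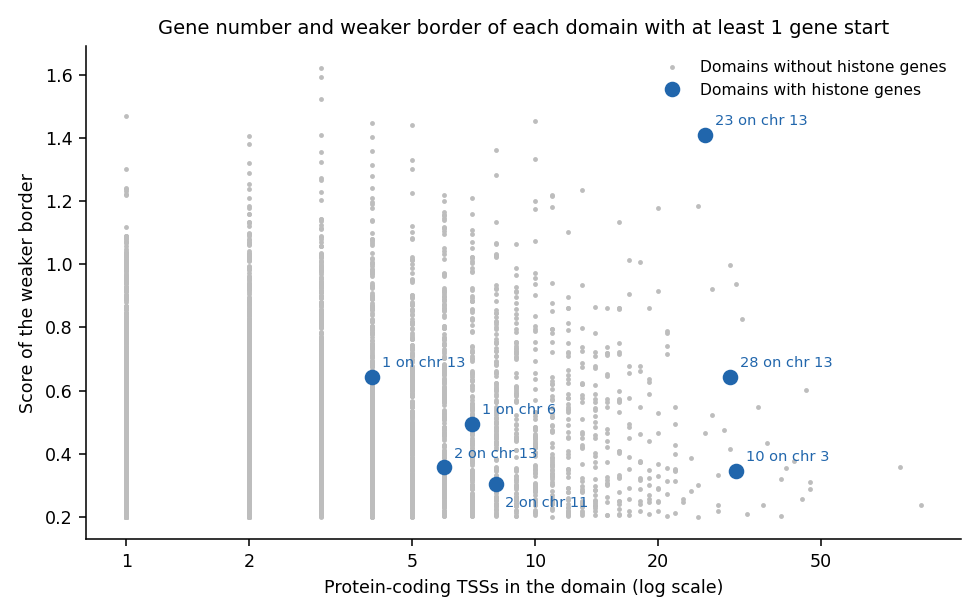
Score of the weaker border against the number of protein-coding TSSs (log scale) for every domain with at least 1 TSS. Blue points are the 7 domains with histone genes, labelled with their number of histone genes and chromosome, and grey points all others. The domain with 23 histone genes stands at 26 TSSs and a weaker border of 1.41, higher than the weaker border of any other domain with 20 or more TSSs.

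The neighbourhood on the 2 sides of that domain was made of receptor genes. The domain to its left (175 kb) held 8 protein-coding TSSs, all of olfactory receptor genes. The next 2 domains to its right (650 and 565 kb) held 18 TSSs each, all of type 1 vomeronasal receptor genes. None of these 3 domains held a histone gene. Inside the histone domain the only other protein-coding genes were the zinc finger gene Zfp184, the nucleoporin-like gene Pom121l2 and the protease gene Prss16, all in the 202 kb between groups A and B. No boundary was called in that gap, so groups A and B shared a domain.

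The domain of group C had the highest density of protein-coding TSSs of all 7821 domains, 12.5 per 100 kb. Its right border, chr13:23770001-23775000, had a score of 1.38 (35th on the chromosome, 598th of all). Within 10 kb of it started Hist1h1a (H1, 6.33 kb), Hist1h3a (H3, 7.62 kb) and Hist1h4a (H4, 8.77 kb), the last genes of the group. Trim38, a tripartite motif gene and not a histone gene, started 0.088 kb from the interval. Beyond this border lay a domain of 205 kb with the phosphate and anion transporter genes Slc17a1, Slc17a2, Slc17a3 and Slc17a4 and the testis-type pair Hist1h2ba and Hist1h2aa. The pair started 40.8 and 40.5 kb from the nearest boundary (score 0.357, weak). That boundary overlapped the gene model of Scgn and lay 11.2 kb from its start. The only other gene of the group C domain besides Trim38 was Hfe, which encodes a regulator of iron uptake.

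The left border of that domain was the only boundary inside any of the 7 groups. It was strong but weaker than the other 3 borders of the large histone domains, with a score of 0.644 (149th on chromosome 13, 3245th of all). The TSSs of Hist1h4h (H4) and Hist1h2af (H2A) both lay inside its 5 kb interval, 2.86 kb apart on the same strand, and Hist1h3g (H3) started 0.422 kb from it. Hist1h2bh (H2B, 8.39 kb) and Hist1h3f (H3, 9.05 kb) also lay within 10 kb. By the interval midpoint Hist1h4h fell into the domain to the left, with Abt1, which encodes a transcription activator, and the butyrophilin genes Btn1a1 and Btn2a2. Since both TSSs are in the called interval, the 5 kb bins do not settle on which side each lies. The nearest start of a gene other than a histone gene, that of Btn2a2, was 41.1 kb away. That smaller domain (120 kb) had strong borders too, of 0.880 and 0.644, the former at chr13:23410001-23415000 and 8.87 kb from the start of Abt1.

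The sequence upstream of the 2 genes that start inside this boundary interval, and of Hist1h1a, the histone gene nearest to the border on the other side of the domain, is shown for the 150 bases before each RefSeq start (GRCm38.p6, plus strand). Capitals mark CCAAT boxes (CCAAT) and TATA boxes (TATAAA) on either strand:
Hist1h4h, chr13:23530894-23531043: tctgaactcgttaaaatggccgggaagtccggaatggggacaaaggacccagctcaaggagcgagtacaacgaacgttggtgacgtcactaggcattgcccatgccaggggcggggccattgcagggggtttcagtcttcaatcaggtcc
Hist1h2af, chr13:23533725-23533874: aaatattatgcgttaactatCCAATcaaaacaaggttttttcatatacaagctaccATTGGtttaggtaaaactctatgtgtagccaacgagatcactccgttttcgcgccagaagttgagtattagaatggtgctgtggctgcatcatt
Hist1h1a, chr13:23763518-23763667: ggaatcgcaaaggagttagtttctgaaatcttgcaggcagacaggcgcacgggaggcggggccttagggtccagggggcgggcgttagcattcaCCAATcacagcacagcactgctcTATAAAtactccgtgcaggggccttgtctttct

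These letters held no match to either box for Hist1h4h, CCAAT boxes for Hist1h2af, and both boxes for Hist1h1a.

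Outside chromosome 13 the histone genes were not closed in tightly. The 10 Hist2 genes of chromosome 3 lay together in a domain of 670 kb with 31 protein-coding TSSs, of which they made up 32.3%. Its borders were both weak, with scores of 0.479 (chr3:96055001-96060000) and 0.347 (chr3:96725001-96730000). All 10 genes were between 159.9 and 209.8 kb from the nearest boundary, and Hist2h2bb (209.8 kb) and Hist2h3b (208.7 kb) were the 2 members farthest from any. The borders lay at other genes instead. Vps45, a gene of vesicle sorting, started inside the left one, and Polr3c, a subunit gene of RNA polymerase III, inside the right one. The group began 0.156 kb from the start of Bola1 and ended 24.2 kb before that of the Fc receptor gene Fcgr1.

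The 2 Hist3 genes of chromosome 11 shared a domain of 145 kb with 6 other protein-coding TSSs. Its left border was strong (score 0.780, chr11:58845001-58850000), 98.9 kb from Hist3h2ba, with the start of Gm12258 inside it. Its right border was weak (0.305, chr11:58990001-58995000) and 35.3 kb from Hist3h2a, with the start of Trim11, a tripartite motif gene, 11.9 kb away. The model of Hist3h2a starts at the same base as that of Trim17, a tripartite motif gene. Hist4h4 on chromosome 6 lay 30.6 kb from a strong boundary (score 1.23, chr6:136835001-136840000) in a domain of 225 kb with 6 other genes, among them H2afj, a replacement H2A gene that starts 3.83 kb away. The start of Smco3 lay inside this boundary. The other border of the domain was weak (0.496, chr6:136610001-136615000) and 189 kb from Hist4h4. It overlapped the gene models of Atf7ip and Plbd1, and the nearest start, that of Plbd1, was 46.9 kb away.

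**Figure D3:**
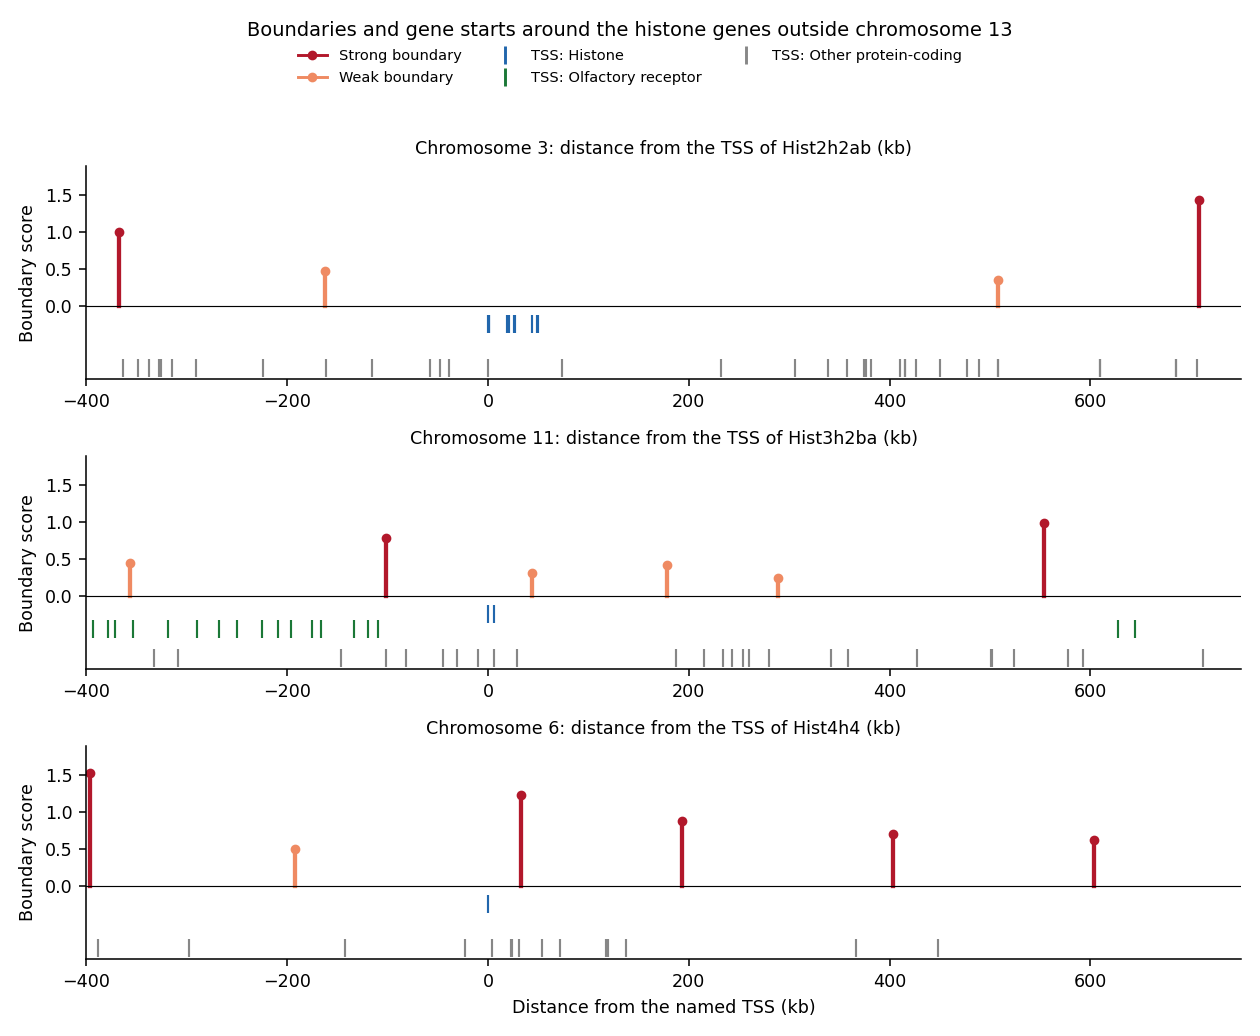
Boundaries and protein-coding gene starts around the histone genes of chromosomes 3, 11 and 6, by distance in kb from the TSS of Hist2h2ab, Hist3h2ba and Hist4h4. Symbols are as in the map of chromosome 13. The Hist2 genes sit far from both weak borders of their domain (scores 0.479 and 0.347), while the strong boundary of 1.23 lies 30.6 kb from Hist4h4.

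Counted gene by gene, the share of histone TSSs near a boundary equalled that of all genes at a limit of 10 kb. At other limits it lay above or below that of all genes, and none of these differences was tested. Of the 67 genes 11 (16.4%, Wilson 95% interval 9.42 to 27.1%) started within 10 kb of a boundary, against 3570 of 21755 protein-coding genes, 16.4%. At 0 kb the shares were 2.99% against 5.07%, at 25 kb 35.8% against 27.8%, and at 50 kb 61.2% against 46.3%. Within 10 kb of a boundary midpoint they were 8.96% against 14.5%. Measured from the gene body in place of the TSS, 16.4% of histone genes and 28.8% of all genes were within 10 kb. The 11 genes with a TSS within 10 kb shared only 3 boundaries, so they are not independent and the interval is too narrow. The 3 boundaries were all strong. Within 10 kb of a strong boundary started 10.6% of all protein-coding genes. By family the genes within 10 kb were 4 of 12 H3, 2 of 18 H2A, 2 of 18 H2B, 2 of 13 H4 and 1 of 6 H1 genes. Just outside the limit were Hist1h2bj (11.8 kb), Hist1h2bm (12.0 kb) and Hist1h2ag (12.1 kb).

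The median distance to the nearest boundary was 40.5 kb (quartiles 17.2 and 86.8 kb) for the 67 histone genes and 55.3 kb (quartiles 21.4 and 102 kb) for all protein-coding genes. To the nearest strong boundary it was 40.8 kb for histone genes and 98.99 kb for all. Families ranged from a median of 25.9 kb for H3 to 50.9 kb for H1, with ranges that overlapped. Distances within a group run in order along the chromosome, so they describe the groups rather than single genes. The TSS of Hist1h2be (86.1 kb) is that of a 37.5 kb gene model, and its start codon lay 50.96 kb from a boundary, in the same domain.

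**Figure D4:**
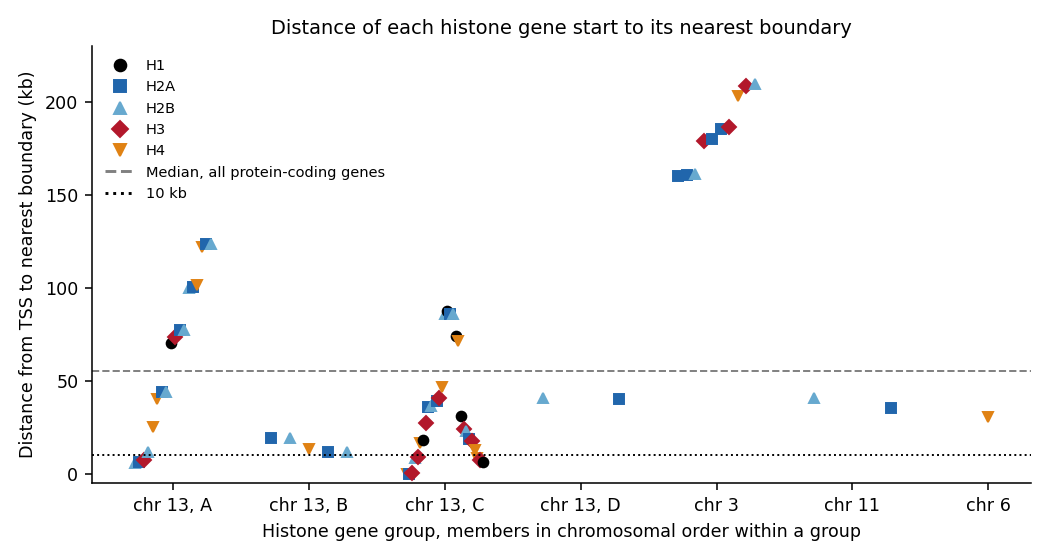
Distance in kb from each of the 67 histone TSSs to its nearest boundary, by group and with the members of a group in chromosomal order; symbols give the family. The dashed line is the median of all protein-coding genes (55.3 kb) and the dotted line 10 kb. Group C of chromosome 13 is near a boundary at both ends, and the genes of chromosome 3 lie between 159.9 and 209.8 kb.

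Neighbouring histone genes were seldom separated by a boundary. Of 60 neighbouring pairs at most 100 kb apart, 1 (1.67%) had a boundary midpoint between its TSSs, which was Hist1h4h and Hist1h2af. For neighbouring protein-coding pairs over the same limit the share was 2268 of 16330, 13.9%. Histone pairs stand closer together, with a median of 2.69 kb against 26.5 kb. At up to 1 kb 0 of 13 histone pairs were separated, against 0.286% of all pairs at that spacing. At 1 to 10 kb 1 of 36 histone pairs was separated (2.78%), against 5.41% of 2256 pairs of all genes, and at 10 to 100 kb 0 of 11, against 16.9% of 12673. Spacing still differed within these 3 ranges. The medians were 0.268, 2.77 and 20.45 kb for histone pairs and 0.163, 6.06 and 34.92 kb for all pairs. No test of the differences in share was made. Of the divergent histone pairs 0 of 19 were separated, against 13.9% of all divergent pairs, and of the convergent ones 0 of 16, against 14.7%. The divergent histone pairs had a median spacing of 0.296 kb, against 16.1 kb, and the convergent ones 8.54 kb, against 30.6 kb.

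No boundary midpoint fell between the TSSs of the 12 divergent H2A-H2B pairs under 1 kb, and at up to 1 kb the share was 0.286% for all 1401 protein-coding pairs. Their TSSs were 176 to 306 bases apart, with a median of 259.5. These pairs took in 12 of the 18 H2A genes and 12 of the 18 H2B genes. For 10 of the pairs RefSeq starts were available for both genes, with 163 to 280 bases between the starts (median 203.5). Each of the 10 held between 2 and 5 CCAAT boxes on either strand. The pairs nearest to the left and the right border of the domain of groups A and B, and a pair of group B with an octamer (ATTTGCAT, the binding letters of Oct factors), are shown on the plus strand of GRCm38.p6 between both starts, with matches to the CCAAT box, the TATA box and the octamer in capitals:
Hist1h2bl/Hist1h2ai, chr13:21716184-21716411: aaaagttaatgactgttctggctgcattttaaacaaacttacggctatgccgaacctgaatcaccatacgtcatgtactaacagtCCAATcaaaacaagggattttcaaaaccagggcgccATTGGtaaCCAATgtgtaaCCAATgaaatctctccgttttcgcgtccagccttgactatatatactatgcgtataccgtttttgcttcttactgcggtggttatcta
Hist1h2ag/Hist1h2bj, chr13:22042950-22043197: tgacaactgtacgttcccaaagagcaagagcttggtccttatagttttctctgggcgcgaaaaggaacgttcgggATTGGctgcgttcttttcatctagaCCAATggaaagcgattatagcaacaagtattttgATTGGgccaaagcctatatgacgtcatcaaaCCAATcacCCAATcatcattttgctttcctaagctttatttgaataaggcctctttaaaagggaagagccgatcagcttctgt
Hist1h2ah/Hist1h2bk, chr13:22035644-22035820: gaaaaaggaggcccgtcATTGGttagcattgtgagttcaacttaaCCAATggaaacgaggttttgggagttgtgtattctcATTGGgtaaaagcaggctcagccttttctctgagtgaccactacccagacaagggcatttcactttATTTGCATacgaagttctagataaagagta

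The pairs at the left and right border thus held 4 and 5 CCAAT boxes and no octamer, and the pair with the octamer 3 CCAAT boxes. The octamer was found in 3 of the 10 pairs.

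Motif matches sorted the promoters by family. In RefSeq windows from 250 bases before to 50 after the start, matched through gene identifiers for 62 of the 67 genes, a CCAAT box on either strand was found for all 50 matched H1, H2A, H2B and H3 genes but for 3 of 12 H4 genes, against 41.1% of 27025 genes of the RefSeq table. The octamer was found for 7 of 18 H2A and 7 of 16 H2B genes and for none of the H1, H3 and H4 genes, against 1.97% of all. The H1 box (AAACACA), an element of H1 promoters, was found for 5 of 6 H1 genes, against 8.22% of all. TATAAA was found for 35 of 62 genes (56.5%), against 15.7%. Windows of divergent pairs overlap, so an H2A and an H2B gene can share a match. None of these motifs contains another. The unmatched genes were Hist1h3f, Hist1h2bc, Hist1h3a, Hist2h2be and Hist2h4.

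**Figure D5:**
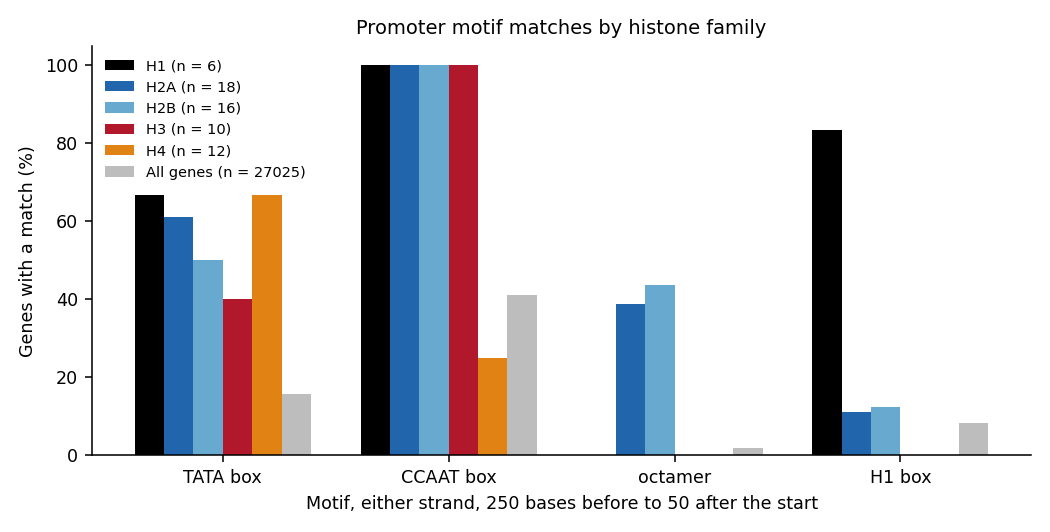
Percent of genes with at least 1 match to each motif on either strand, in the window from 250 bases before to 50 after the RefSeq start, for the 5 histone families and for all 27025 genes of the table (grey). CCAAT reaches 100% in 4 families and 25.0% in H4, the octamer appears in H2A and H2B alone among the families, and the H1 box is found in 83.3% of H1 genes.

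The 12 borders of the 7 domains were compared with all boundaries, without a test. They had a median score of 0.712, against 0.533 for all boundaries. The borders of domains with Hox genes and with keratin genes had medians of 0.690 and 0.713. Of the 12 histone borders 7 were strong (58.3%, Wilson 95% interval 31.95 to 80.7%), against 52.8% of all. Of the 6 on chromosome 13, 5 were strong (83.3%, Wilson 95% interval 43.65 to 96.99%), against 54.9% of all 339 boundaries of that chromosome. The median score of these 6 was 1.13, against 0.564 for all on chromosome 13. With 6 borders the interval is wide and takes in the share of the chromosome. CTCF is the zinc finger protein at which extruding cohesin stops, and convergent CTCF sites often mark loop ends. A match to a loose core of its motif (CCA, any 2 bases, AG, any 2 bases, GGC) on either strand lay within 10 kb of 10 of the 12 borders (83.3%), against 77.1% of all boundaries. Inside the bare interval there was a match at 2 of 12, against 32.7%.

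Over all boundaries the median number of matches within 10 kb was 2, and over those of chromosome 13 it was 1. The border at Hist1h2bl had 3 within 10 kb, 1 of them inside the interval, the border at Hist1h2bj and that at Hist1h1a had 1 each, and the border at Hist1h4h had none. All but the third match at Hist1h2bl are printed, since these borders close the domains with most histone genes, on GRCm38.p6 in the direction of the motif, with the match in capitals and 20 bases on each side:
Border at Hist1h2bl, inside, minus strand, chr13:21708007-21708058: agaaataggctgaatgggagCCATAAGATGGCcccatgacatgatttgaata
Border at Hist1h2bl, 4.91 kb to the right, plus strand, chr13:21714892-21714943: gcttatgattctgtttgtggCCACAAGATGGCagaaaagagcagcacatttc
Border at Hist1h2bj, 0.801 kb to the left, plus strand, chr13:22054169-22054220: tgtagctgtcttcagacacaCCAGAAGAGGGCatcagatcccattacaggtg
Border at Hist1h1a, 6.68 kb to the left, plus strand, chr13:23763288-23763339: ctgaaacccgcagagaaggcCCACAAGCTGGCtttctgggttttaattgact

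The match at Hist1h2bj lay in sequence that the reference marks as repeated, and the 20 bases before it were shared by 3 of the 22 matches around the 12 borders. Of the 22 matches, 10 (45.5%) lay in repeated sequence, against 51.9% of 15901 around all boundaries. A match describes the letters only, and CTCF binding was not measured.

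tRNA genes shared these domains. The 3 histone domains with tRNA genes held 91 of the 408 tRNA genes that RefSeq lists on these chromosomes (22.3%), while 128 of the 7821 domains held any. With 34, 32 and 25 tRNA genes, the domain of groups A and B, that of Hist1h4h and that of the Hist2 genes ranked 2, 3 and 4 in tRNA number, after a domain with 48. The domain of Hist1h4h counts as a histone domain only by the interval midpoint, and the bins do not settle the side of that TSS. All 32 of its tRNA genes lay to the left of Hist1h4h, so the share of 22.3% depends on this placement. In the domain of groups A and B, 31 of the 34 lay among the histone genes, in the gap between both groups. In that of the Hist2 genes all 25 lay to the right of the last histone gene. The domain that held 28 genes of group C had none. Nearby domains of chromosome 13 without histone genes held tRNA genes too. There were 24 between the boundaries at chr13:21140001-21145000 and chr13:21340001-21345000, and 12 in the domain of Zfp322a. The other such domains of that stretch held 0 or 1. Within 10 kb of the borders at Hist1h2bl, Hist1h2bj and Hist1h4h were 2, 1 and 3 tRNA genes.

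Repeated sequence was more frequent in the large histone domains than in the median domain. Of the 50-base words sampled from the domain of groups A and B, 82.7% occurred once in the reference chromosomes, and in the domain of group C 88.8% and in that of the Hist2 genes 83.9%, against a median of 93.3% over all domains. In the next 2 domains to the right of that of groups A and B, both of vomeronasal receptor genes, the values were 75.9 and 65.0%. The olfactory receptor domain to the left of that of groups A and B had 85.8%. Whether repeated sequence moves the scores of the borders was not tested. GC content was 42.9% and 42.0% in the large histone domains of chromosome 13, and the median of all domains was 42.3%.

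Genes that serve histone expression, but lie elsewhere, differed among themselves. Of 15 regulators of histone transcription and 3′ end formation, 14 were matched by symbol (all but Symk), and 6 of these (42.9%) started within 10 kb of a boundary, beside 16.4% of all genes. This short list was chosen with earlier results of these data known, and the difference was not tested. Lsm11, a subunit of the U7 particle that cleaves histone transcripts, started inside a strong boundary (score 1.33). Ccne2 (cyclin E2, 1.35 kb, score 0.927) and Cstf2 (a 3′ end factor, 0.814 kb, 0.606) lay near strong boundaries, and Cpsf3, the endonuclease of 3′ end formation (0.391 kb, 0.341), its partner Cpsf2 (4.01 kb, 0.496) and the kinase gene Cdk2 (5.03 kb, 0.422) near weak ones. The others were farther away. Eri1, a nuclease of histone mRNA decay, was 16.2 kb from a boundary, Casp8ap2, a component of the histone locus body, 35.5 kb, Lsm10, also of the U7 particle, 51.6 kb, Slbp, which encodes the protein that binds the stem-loop, 57.6 kb, Zfp473 58.95 kb, Hinfp, an activator of H4 genes, 70.7 kb, Npat 87.0 kb and Ccne1 87.5 kb.

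Of 11 replacement histone genes, which are expressed outside S phase too, 1 (9.09%) was within 10 kb, beside 16.4% of all protein-coding genes. The same limits hold for this list. The replacement gene within 10 kb was H3f3b (H3.3, 2.96 kb, weak, score 0.297), while H3f3a, which encodes the same protein, was 46.1 kb from a boundary. Cenpa, the centromeric H3 gene, was 11.8 kb away, H2afj 26.8 kb, H2afy 43.6 kb, H2afy2 55.9 kb, H2afx 65.3 kb, H2afz 99.5 kb, H1fx 128 kb, H1f0 148 kb and H2afv 174 kb. The boundary nearest to H2afy had a score of 3.57.

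Other clustered families differed in how boundaries cut them. The 39 Hox genes lay in 4 groups and 4 domains with no boundary inside a group, and the domain with the most, 11, had borders of 0.563 and 0.692. The 53 keratin genes lay in 4 groups but 8 domains, with 5 boundaries inside groups, and at most 15 in a domain, whose borders scored 0.713 and 2.61. The histone genes had 1 boundary inside 7 groups and up to 28 genes in a domain, with borders of 0.644 and 1.38. Strong borders were 6 of 8 for the Hox, 7 of 11 for the keratin and 7 of 12 for the histone domains. The median border score was 0.690, 0.713 and 0.712 in the same order. These values cover a few clusters each and were not tested against one another.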

How the data were processed

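The boundary list derives from the pooled contacts of both replicates, per the series' design text, on GRCm38, per the submitters' processing notes. What caller was run is not given in the sources used here. Deposited were, per 5 kb interval, a class and a score, the authors' own value. The members and lists were chosen with earlier results of these data known.

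Genes came from GENCODE M21, sequence, tRNA genes and promoter windows from RefSeq GRCm38.p6, the same build as the list. The strain of the reference differs from that of the cells. A TSS inside a boundary interval was given to a side by the interval midpoint. Named were the ends of each group, every member within 10 kb of a boundary, the 2 farthest, all outside chromosomes 13 and 3, the nearest other genes at borders, and both gene lists. Uniqueness was measured on 1 in 32 of the 50-base words of the reference chromosomes. Wilson 95% intervals cover counting error only. Functions for distances and domains were tested on simulated data. Python 3.11.15, pandas 2.3.3, NumPy 2.4.6, SciPy 1.17.1 and Matplotlib 3.10.9 were used. Alternatives covered the distance limit, the score threshold, merging within 50 kb, the grouping gap, the testis-type members and the gene anchor. The start codon as anchor and the search after stop codons were added after the data were seen. Other data types were not analysed here.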

Additional observations from a re-analysis of the deposited data

How the results depend on the processing

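Of 37 recomputed values, 29 stayed within the interval or within 1.5 times of the reported value. Merging boundaries within 50 kb changed none of the values recomputed with it, for histone genes or for the background. Those values count among the 29 but say nothing about stability. The share near a boundary also could not change with strong boundaries alone or with those at or above the median score. The boundaries concerned are all strong and score above the median. The same holds for the boundary inside a group. Only histone values were judged, and the background share moved from 16.4% to 10.6% and 10.2% in these runs. With the gene body it was 28.8%. The share of histone genes near a boundary was 2.99% at 0 kb, 35.8% at 25 kb and 61.2% at 50 kb, where all protein-coding genes gave 5.07, 27.8 and 46.3%, and it was 8.96% when measured to the boundary midpoint, against 14.5%. The boundaries inside groups rose from 1 to 2 when neighbours up to 200 kb or up to 500 kb apart were joined, because groups C and D then became one. With strong boundaries alone, 3 of the 5 boundaries between groups were left and the median length of histone domains was 430 kb in place of 225 kb, while that of all domains was 405 kb in place of 265 kb. The number of domains with histone genes (7) and the most in a domain (28) were the same in the 3 alternatives run, among them this merging. No paired analysis was possible because both replicates belong to a single group and were combined before the boundaries were called, and for the same reason neither could be left out. Depth is unknown, so what it limits could not be assessed.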
